A study of Mus musculus with 22 samples.

Results

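The HOX genes of the Hoxa, Hoxb, Hoxc and Hoxd clusters were examined in the epithelium of the fetal mouse urogenital sinus, which forms the prostatic buds of the male. A gene was included if a probe set of the array carried its symbol and no other. This gave 33 HOX genes of 30102 genes named in this way, and no HOX gene had more than 1 such probe set. They comprised 8 Hoxa, 9 Hoxb, 9 Hoxc and 7 Hoxd genes. Hoxa7, Hoxa9, Hoxb4, Hoxd3 and Hoxd4 lay only on 4 probe sets that carried several symbols and were not used.

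HOX genes encode homeodomain transcription factors that specify position along the body axis. Within a cluster the genes stand in the order of their paralogue number, and genes of high number act later and more caudally than genes of low number. Genes of the posterior classes pattern the genital tubercle, the reproductive ducts and the hindgut outlet, and mouse mutants of Hoxa10, Hoxa13, Hoxb13 and Hoxd13 have defects of the prostate or its ducts. HOX proteins bind DNA together with cofactors of the TALE homeodomain class, the PBX, MEIS and PKNOX proteins.

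RNA of 22 samples of C57BL/6J fetuses at embryonic day E16.75 was hybridised to whole-transcript arrays after the sinus epithelium had been freed of mesenchyme, bladder and urethra. The groups were 6 male Sox9 knockouts, 6 male littermate controls, 5 female Sox9 knockouts and 5 female littermate controls. Knockouts were ShhCre/+; Sox9fl/fl, with Cre on 1 Shh allele and both Sox9 alleles floxed. Controls were Shh+/+; Sox9+/fl, which lack Cre but carry a floxed allele of Sox9 on 1 chromosome. Cre was thus expressed from the Shh locus, whose product is a signal secreted by this epithelium. The replicates are labelled biological, but the number of fetuses behind each is not stated, and p-values reflect only how these arrays vary. Values are log2 signals of a probe set. Because the signal of a probe set depends on its sequence, levels were compared between groups for 1 gene at a time and not between genes.

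The deleted gene Sox9 averaged 8.26 ± 0.14 in male knockouts, against 9.33 ± 0.21 in male controls (SD, n = 6 each). In females it averaged 7.89 ± 0.09 in knockouts, against 8.89 ± 0.11 in controls (SD, n = 5 each). Shh was also lower in knockouts (log2 difference averaged over the sexes -0.51, SE 0.06, limma adjusted p = 9.43e-05), so a difference between the genotypes cannot be assigned to Sox9, to the Cre allele or to the lower Shh level. The mean of 10 epithelial markers lay between 11.15 and 11.33 on all 22 arrays. In knockouts every male array lay below every female array for this mean (11.210 to 11.269, against 11.273 to 11.328). In controls the sexes overlapped (11.149 to 11.227 in males, against 11.218 to 11.311 in females). Male control 6 stood apart in stromal genes, with a mean of 7.26 over 14 mesenchyme markers, against 6.26 to 6.70 on the other 21 arrays. Its mean over 8 smooth muscle markers was 6.74, against 5.40 to 5.83. In RNA from many epithelial cells together, fewer cells that express a gene and less of its RNA per cell cannot be told apart.

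All Hoxa, Hoxb and Hoxd genes examined passed a filter on dim signals, while 5 of 9 Hoxc genes did not. The filter describes probe sets and does not rank the clusters by expression. A gene was tested if its signal exceeded the array's median over transcript clusters (5.10 to 5.27) on at least 5 arrays. All 8 Hoxa, 9 Hoxb and 7 Hoxd genes did so on all 22 arrays, whereas 4 of 9 Hoxc genes passed. Hoxc4, Hoxc5, Hoxc10 and Hoxc13 were above the median on 0 arrays and Hoxc8 on 3, and Hoxc11 passed with 18. Hoxc10 averaged 3.39 in male knockouts, 3.53 in male controls, 3.39 in female knockouts and 3.40 in female controls, beside a median signal of 3.19 over the 23 background controls. The group means of the remaining Hoxc genes ran from 4.10, that of Hoxc5 in male controls, to 5.95, that of Hoxc6 in female controls. In all, 28 HOX genes were tested in a fit over 19050 genes, and 5 were not.

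Between genotypes, the smallest p-values among HOX genes lay in the posterior Hoxd genes. Averaged over the sexes, 1 of 28 HOX genes was called at an adjusted p under 0.05, Hoxd12, and it was higher in knockouts. Over all genes, 0.247% were called in this comparison and 0.0472% were called as higher. No HOX gene was called in males alone, where 0.199% of all genes were called, or in females alone, where 0.0315% were. An unadjusted p under 0.05 was reached by 4 HOX genes in males (6.27% of all genes), 3 in females (5.46%) and 5 on the average (7.19%), and these 5 were Hoxd9, Hoxd10, Hoxd11, Hoxd12 and Hoxd13.

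The start regions of the HOX genes with a call, Hoxd12 by genotype and Hoxd11 and Hoxd10 by sex, are shown to set their letters beside their values. RefSeq promoters of GRCm38.p6, 250 bases before to 50 after a start, were found for 17 of the 33 HOX genes in 19 entries. They were searched on both strands for ACAATG and ACAAAG, letters that SOX proteins are known to bind, and a match on either strand is in capitals. The motifs share their opening letters ACAA and were counted separately. At least 1 of them occurs in 28.6% of 32851 promoters of the same length and in 4 of the 19 HOX entries, those of Hoxa3, Hoxa11, Hoxb1 and 1 of Hoxd11.
Hoxd12 promoter, chr2:74674763-74675062, + strand: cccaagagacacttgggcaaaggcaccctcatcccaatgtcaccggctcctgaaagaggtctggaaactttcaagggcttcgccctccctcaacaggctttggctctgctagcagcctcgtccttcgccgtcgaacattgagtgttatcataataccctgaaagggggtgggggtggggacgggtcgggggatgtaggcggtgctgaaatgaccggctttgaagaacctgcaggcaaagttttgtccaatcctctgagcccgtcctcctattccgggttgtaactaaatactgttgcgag
Hoxd11, entry 1, promoter, chr2:74679308-74679607, + strand: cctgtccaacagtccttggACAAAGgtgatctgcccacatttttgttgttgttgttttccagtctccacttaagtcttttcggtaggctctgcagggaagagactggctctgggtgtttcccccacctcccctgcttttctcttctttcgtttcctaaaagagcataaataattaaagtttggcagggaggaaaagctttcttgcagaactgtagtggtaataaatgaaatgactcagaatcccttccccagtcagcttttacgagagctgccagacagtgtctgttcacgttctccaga
Hoxd11, entry 2, promoter, chr2:74682073-74682372, + strand: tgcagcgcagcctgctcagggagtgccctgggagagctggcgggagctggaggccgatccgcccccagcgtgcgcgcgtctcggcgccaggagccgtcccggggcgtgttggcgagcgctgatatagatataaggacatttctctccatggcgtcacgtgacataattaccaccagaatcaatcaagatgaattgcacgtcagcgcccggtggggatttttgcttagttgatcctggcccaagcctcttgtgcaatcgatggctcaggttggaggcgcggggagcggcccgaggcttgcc
Hoxd10 promoter, chr2:74691641-74691940, + strand: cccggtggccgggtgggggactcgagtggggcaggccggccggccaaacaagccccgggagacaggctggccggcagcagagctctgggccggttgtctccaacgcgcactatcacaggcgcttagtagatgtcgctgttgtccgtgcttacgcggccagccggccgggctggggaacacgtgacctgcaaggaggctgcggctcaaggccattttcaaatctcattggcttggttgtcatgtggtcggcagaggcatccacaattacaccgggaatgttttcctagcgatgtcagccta
ACAAAG occurs once, in entry 1 of Hoxd11, and neither motif occurs in the windows of Hoxd12, Hoxd10 or entry 2 of Hoxd11. A match of 6 letters is a description of the sequence and was not tested against expression.

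Hoxd12, a posterior gene known for its part in patterning the limb and the hindgut outlet, gave 7.42, 7.43, 7.56, 7.57, 7.66 and 7.71 in male knockouts, against 7.01, 7.18, 7.25, 7.27, 7.38 and 7.44 in male controls. The 2 lowest male knockouts lay just below the highest male control, so the groups overlapped. In females it gave 7.50, 7.50, 7.73, 7.85 and 8.06 in knockouts, against 7.20, 7.31, 7.36, 7.42 and 7.42 in controls. Here every knockout lay above every control, which held for 1 of 28 HOX genes and for 0.772% of all genes. In males the genotypes overlapped for all 28 HOX genes, and 0.42% of all genes were free of overlap in either direction. The log2 difference was 0.30 in males (SE 0.09, adjusted p = 0.321) and 0.38 in females (SE 0.09, adjusted p = 0.374). Averaged over the sexes it was 0.34 (SE 0.06, 95% interval 0.21 to 0.48, limma adjusted p = 0.0109), a 1.27-fold higher level in knockouts. The male effect minus the female effect was -0.08 (95% interval -0.35 to 0.18, adjusted p = 0.997).

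The mean of 5 urothelium markers, the uroplakins, was 10.85 in male knockouts (10.49 to 11.37 over arrays), against 10.78 in male controls (10.58 to 11.00). It was 11.09 in female knockouts (10.74 to 11.35), against 10.74 in female controls (10.44 to 11.03). Whether this RNA came from sinus or bladder epithelium was not tested. With genotype 0 of the 5 markers were called, where 0.0315% of all genes were called in females, 0.199% in males and 0.247% on average. An unadjusted p under 0.05 was reached by 4 of the 5 in females, where all 5 had positive differences with a median of 0.40. It was reached by 0 of the 5 in males (median 0.04) and by 2 on the average of the sexes (median 0.19). Of 6 tested immune markers, 0 were called with genotype. All 6 had positive differences in females (median 0.19), 1 of them at an unadjusted p under 0.05, and 3 of 6 did in males (median 0.01). The part of immune RNA in the HOX values was not tested. With the mean of the urothelium markers as a covariate, an alternative chosen after seeing the data, Hoxd12 differed by 0.32 on average and was no longer called (adjusted p = 0.0671). It was called under each of the other 11 alternative settings and whichever array was left out (adjusted p between 0.00525 and 0.036). Without male control 6 its difference was 0.34 (adjusted p = 0.0245).

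**Figure D1:**
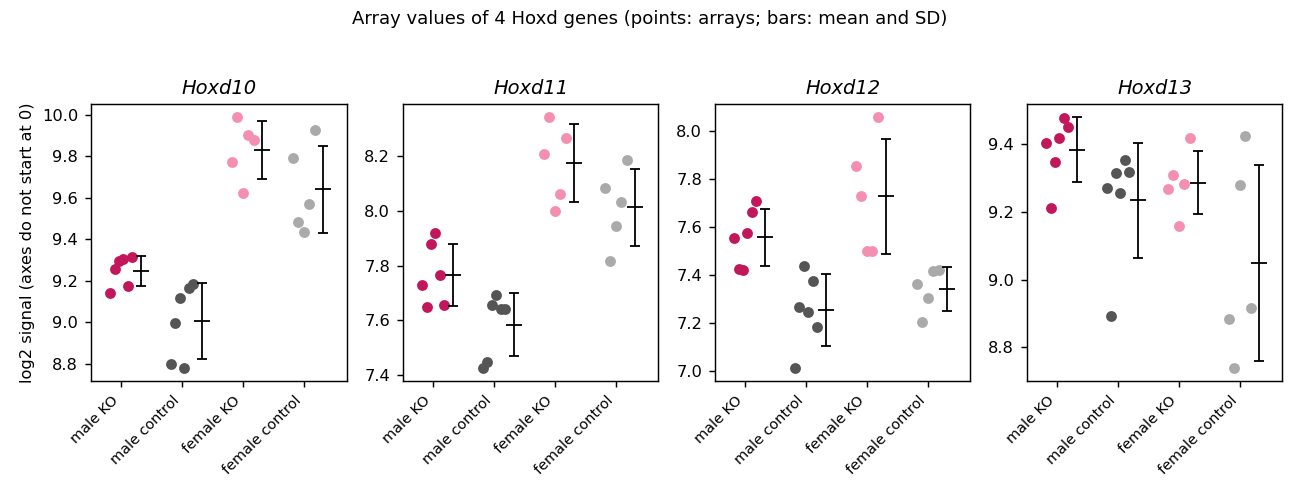
Log2 signal (y axis) of Hoxd10, Hoxd11, Hoxd12 and Hoxd13 on each array, with male and female knockouts drawn left of their controls. Points are arrays and bars give the mean and SD of 6 male or 5 female arrays; for Hoxd10 and Hoxd11 all male arrays lie below all female arrays of the same genotype, and for Hoxd12 all female knockouts lie above all female controls.

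The 4 genes next to Hoxd12 in the cluster had positive differences that did not pass the test. Hoxd13, the most posterior gene of the cluster and a gene required for normal prostatic and genital development in mice, gave 9.21 to 9.48 with a median of 9.41 in male knockouts, against 8.89 to 9.35 with a median of 9.29 in male controls. In females it gave 9.16, 9.27, 9.28, 9.31 and 9.42 in knockouts, against 8.74, 8.88, 8.92, 9.28 and 9.42 in controls, and 2 of the 5 controls reached the knockouts. The average difference of Hoxd13 was 0.19 (SE 0.07, adjusted p = 0.464). Hoxd11, which acts with its Hoxa paralogue in the kidney and forelimb, differed by 0.17 (SE 0.05, adjusted p = 0.291).

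Hoxd10, a gene of limb and spinal cord patterning, averaged 9.25 ± 0.07 in male knockouts, against 9.01 ± 0.18 in male controls (SD, n = 6 each). In females it averaged 9.83 ± 0.14 in knockouts, against 9.64 ± 0.21 in controls (SD, n = 5 each). The genotypes overlapped in both sexes. Its average difference was 0.22 (SE 0.06, adjusted p = 0.261), and that of Hoxd9 was 0.13 (SE 0.06, adjusted p = 0.664). Hoxd8, of the central class, differed by 0.03 (95% interval -0.07 to 0.14). Hoxd1, the anterior end of the cluster, differed by 0.15 with a wide interval of -0.11 to 0.42.

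Differences along the chromosome were set beside the genes that flank the cluster. Lnpk, a membrane protein gene beyond the posterior end, had an average difference of 0.12 (SE 0.04, adjusted p = 0.378), and Evx2, the homeobox gene next to Hoxd13, one of 0.04 (95% interval -0.08 to 0.17). Mtx2, a mitochondrial protein gene beyond Hoxd1, differed by -0.05 (95% interval -0.12 to 0.01). All 7 tested Hoxd genes had a positive average difference, with a median of 0.17. Over all 19050 genes the median was 0.01, and 11181 genes were positive. In the other clusters the counts were 3 of 8 positive for Hoxa (median -0.02), 4 of 9 for Hoxb (median -0.01) and 3 of 4 for Hoxc (median 0.00). The 7 Hoxd genes share 1 cluster and the annotated bodies of Hoxd10 and Hoxd11 overlap, so their signals may not be independent. Whether Hoxd departs from the other genes as a set was not tested.

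**Figure D2:**
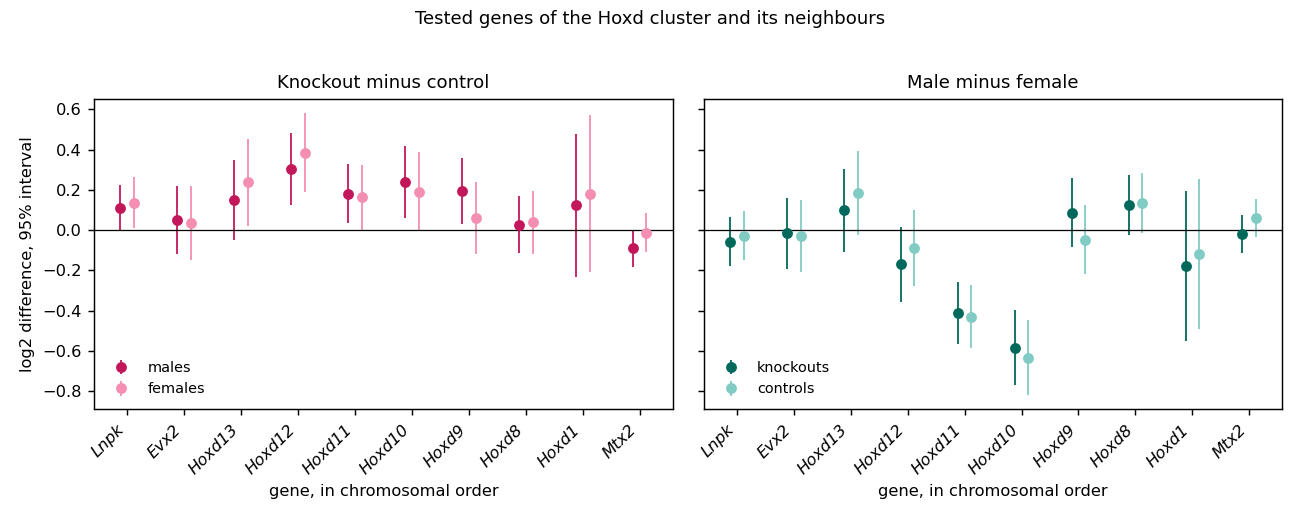
Log2 difference with its 95% interval (y axis) of the tested Hoxd genes and their flanking genes Lnpk, Evx2 and Mtx2, in chromosomal order (x axis). Left, knockout minus control in males and females, where Hoxd12 has the largest values (0.30 and 0.38); right, male minus female in knockouts and controls, where Hoxd10 (-0.58 and -0.63) and Hoxd11 (-0.41 and -0.43) are below 0.

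Of 8 tested paralogues of the posterior Hoxd genes in other clusters, 0 were called with genotype in males, in females or on average. The shares of all genes called were 0.199% in males, 0.0315% in females and 0.247% on average, so a count of 0 is near the background. In paralogue group 12, Hoxc12 differed by 0.00 on average (95% interval -0.12 to 0.13). In group 13, Hoxa13, required for the genital tubercle and the hindgut outlet, averaged 8.11 ± 0.06 in male knockouts, against 8.06 ± 0.09 in male controls (SD, n = 6 each). Its average difference was 0.03 (95% interval -0.04 to 0.11). Hoxb13, a gene of prostate and tail development, averaged 6.91 ± 0.13 in male knockouts, against 6.90 ± 0.13 in male controls (SD, n = 6 each), and differed by -0.01 on average (95% interval -0.11 to 0.09). In group 11, Hoxa11 differed by -0.07 and Hoxc11 by -0.05, and in group 10, Hoxa10, needed for the uterus and the accessory sex glands, by -0.02. In group 9, Hoxb9 differed by -0.09 and Hoxc9 by 0.03. Whether a gene's difference departs from that of its paralogue was not tested.

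The other tested HOX genes showed no call with genotype, where 0.247% of all genes were called on the average of the sexes. The 24 genes other than Hoxd10 to Hoxd13 had average differences from -0.13 (Hoxa2) to 0.15 (Hoxd1), and their 95% intervals reached from -0.28 to 0.42 at the widest. The 6 tested genes of the anterior class (paralogues 1 to 3) had a median difference of 0.00. The 9 genes of the central class (4 to 8) had a median of 0.01 and the 13 of the posterior class (9 to 13) one of 0.03. None of the 28 HOX genes had a sex difference in the knockout effect that was called, where 0.00525% of all genes had one, and 0 reached an unadjusted p under 0.05 for it (4.04% of all genes did). The interaction of largest size was that of Hoxb6 (-0.28, 95% interval -0.61 to 0.05, adjusted p = 0.997).

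Between the sexes, the calls fell on a pair of neighbouring genes, Hoxd10 and Hoxd11, and both were lower in males. The call was made in knockouts and, on separate arrays, in controls. These 2 of 28 HOX genes make 7.14%, close to the 6.94% of all genes that were called between control males and females and the 7.19% called between knockout males and females. As lower in males alone, 3.67% of all genes were called in controls and 3.52% in knockouts. The share of HOX genes called was thus near the background. An unadjusted p under 0.05 was reached by 2 HOX genes in knockouts (17.2% of all genes) and 5 in controls (19.1%).

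Hoxd10 gave 9.14 to 9.31 with a median of 9.27 in male knockouts, against 9.62, 9.77, 9.88, 9.90 and 9.99 in female knockouts. In controls it gave 8.78 to 9.18 with a median of 9.06 in males, against 9.44, 9.48, 9.57, 9.79 and 9.93 in females. No male array reached a female array of the same genotype, and even the highest male knockout was below the lowest female control. The male minus female difference was -0.58 in knockouts (SE 0.09, limma adjusted p = 0.000108) and -0.63 in controls (SE 0.09, adjusted p = 4.96e-05). The control difference amounts to a 1.55-fold lower level in males.

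Hoxd11 gave 7.65 to 7.92 with a median of 7.75 in male knockouts, against 8.002, 8.06, 8.21, 8.27 and 8.34 in female knockouts. In controls it gave 7.43 to 7.69 with a median of 7.64 in males, against 7.82, 7.95, 8.03, 8.08 and 8.19 in females. The sexes again did not overlap within a genotype, which held for 2 of 28 HOX genes as lower in males, 3.03% of all genes in knockouts and 2.82% in controls. The difference was -0.41 in knockouts (SE 0.07, adjusted p = 0.000728) and -0.43 in controls (SE 0.07, adjusted p = 0.00049). Both genes were called in both genotypes under all 12 alternative settings and whichever array of the 2 groups compared was left out. Without male control 6 they stayed called, and that array had the highest Hoxd10 value of the male controls.

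The genes on either side of this pair were not called between the sexes. Hoxd12, on the posterior side, had a male minus female difference of -0.17 in knockouts (95% interval -0.36 to 0.02) and -0.09 in controls (-0.27 to 0.10). Hoxd13 had positive values, 0.10 in knockouts (95% interval -0.11 to 0.30) and 0.19 in controls (-0.02 to 0.39). Hoxd9, on the anterior side of Hoxd10, had 0.09 in knockouts (95% interval -0.09 to 0.26) and -0.05 in controls (-0.22 to 0.12). Whether these differences depart from those of Hoxd10 and Hoxd11 was not tested. The annotated gene bodies of Hoxd10 and Hoxd11 overlap by 2744 bases in RefSeq, so their signals may not be independent, and where the probes lie was not analysed here. The bodies of Hoxa3 and Hoxa4, Hoxa5 or Hoxa6 overlap as well.

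Outside Hoxd10 and Hoxd11, 0 of 26 HOX genes were called between the sexes. This count follows from setting the called genes aside, and 7.19% of all genes were called in knockouts and 6.94% in controls. Hoxb6, of the central class, came closest in controls. It gave 8.68 to 9.01 with a median of 8.80 in male controls, against 8.38, 8.43, 8.48, 8.55 and 8.79 in female controls, and only the highest female control reached the males. The difference in controls was 0.30 (SE 0.11, adjusted p = 0.129), and it passed with array weights (adjusted p = 0.0343) or with only the control arrays in the fit (adjusted p = 0.0483). In knockouts it gave 8.46 to 8.97 with a median of 8.83 in males, against 8.42, 8.50, 8.80, 8.95 and 8.98 in females, with a difference of 0.02 (95% interval -0.21 to 0.26).

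Hoxa10 gave 8.28 to 8.48 with a median of 8.39 in male knockouts, against 8.39, 8.40, 8.44, 8.54 and 8.60 in female knockouts. In controls it gave 8.31 to 8.45 with a median of 8.39 in males, against 8.39, 8.48, 8.54, 8.55 and 8.59 in females. The arrays overlapped in both genotypes, and the differences were -0.10 in knockouts (SE 0.05, adjusted p = 0.322) and -0.12 in controls (SE 0.05, adjusted p = 0.16). By paralogue class, the median male minus female difference was 0.03 in knockouts and 0.04 in controls for the 6 anterior genes. It was 0.03 in knockouts and 0.13 in controls for the 9 central genes, and -0.05 in knockouts and -0.09 in controls for the 13 posterior genes. All 4 tested central Hoxb genes, Hoxb5 to Hoxb8, had positive differences in controls, with a median of 0.20, and 3 of 4 in knockouts, with a median of 0.05. In the whole Hoxb cluster 7 of 9 genes were positive in controls and 5 of 9 in knockouts, among them Hoxb3 (0.18 in controls and 0.10 in knockouts). Of all 19050 genes, 8528 were positive in controls and 8388 in knockouts. None of the 9 Hoxb genes passed the test, and genes of 1 cluster may not be independent. Hoxb13 differed by -0.06 in knockouts (95% interval -0.21 to 0.08) and -0.12 in controls (-0.26 to 0.03). Hoxa13 differed by 0.04 in knockouts and 0.00 in controls, with 95% intervals of -0.06 to 0.15 in knockouts and -0.10 to 0.11 in controls.

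**Figure D3:**
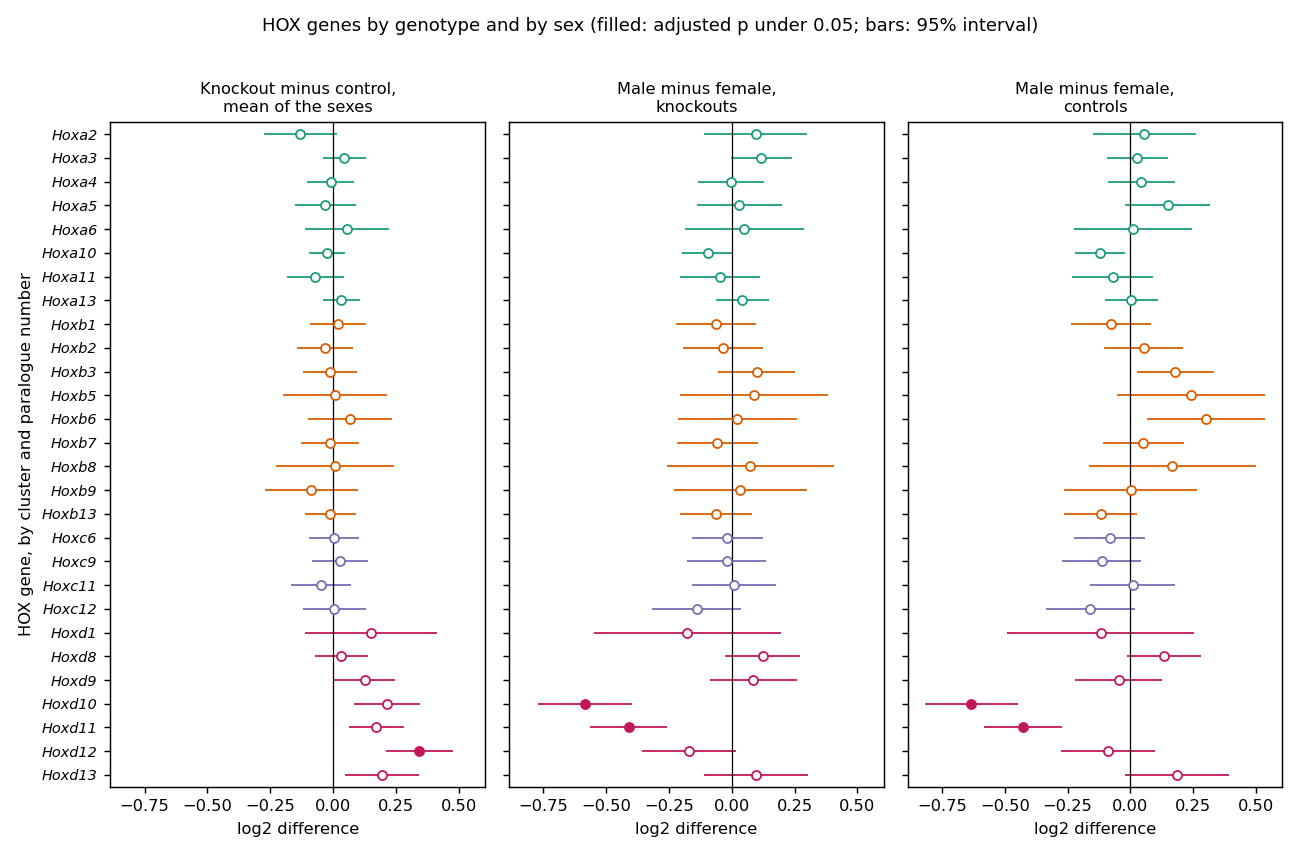
Log2 difference with its 95% interval (x axes) of the 28 tested HOX genes (y axis, coloured by cluster) for knockout minus control (mean of males and females) and for males minus females within knockouts and within controls. Filled points passed an adjusted p of 0.05: Hoxd12 at 0.34 in the first panel, and Hoxd10 and Hoxd11 between -0.63 and -0.41 in the others.

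Markers of other cell types were set beside the sex calls. The mean of 6 markers of the Wolffian and Mullerian ducts, which end in the sinus and express posterior HOX genes, was 6.08 in male knockouts (5.83 to 6.50 over arrays), against 6.09 in female knockouts (5.92 to 6.32). In controls it was 6.16 in males (5.75 to 6.59), against 6.07 in females (5.98 to 6.17). With that mean as a covariate, chosen after seeing the data, Hoxd10 and Hoxd11 were still called in both genotypes. That mean pools markers of both ducts, so this fit cannot tell the share of either duct in the HOX values. Of 6 duct markers, 5 urothelium markers and 7 smooth muscle markers tested, 0 were called between the sexes in either genotype. Of 13 mesenchyme markers tested, Lum was higher in knockout males and Dcn lower in control males. Of 10 epithelial markers, 3 keratins (Krt8, Krt14 and Krt18) were lower and Foxa1 and Grhl2 higher in knockout males, and Krt14 and Krt18 were lower in control males. These calls make 50% of the epithelial markers in knockouts, where 7.19% of all genes were called, and 20% in controls, where 6.94% were. The part of these markers in the HOX values was not tested.

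HOX genes differed in how much they varied between arrays of 1 group. Hoxd1 varied most, with a pooled SD of 0.33 and an SD of 0.53 in female controls, followed by Hoxb8 (0.29), Hoxb5 (0.26) and Hoxb9 (0.23). The spread of Hoxb8 lay in males, with an SD of 0.40 in knockouts and 0.36 in controls, against 0.10 and 0.07 in females. For Hoxb9 these SDs were 0.27 and 0.28 in males, against 0.19 and 0.09 in females. Hoxa10 (0.07), Hoxa13 (0.08) and Hoxa3 (0.09) varied least, while Hoxd12 (0.16), Hoxd10 (0.16) and Hoxd11 (0.13) lay between.

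Male control 6, the array with raised stromal markers, lay below all other 5 male controls for 9 of 28 HOX genes (32.1%) and above them for 1, Hoxd10 (3.57%). Over all 19050 genes it lay below the others for 21% and above them for 17.9%, and whether the HOX genes depart from these shares was not tested. The 9 were Hoxb1, Hoxb7, Hoxb8, Hoxb9, Hoxb13, Hoxc6, Hoxc9, Hoxd1 and Hoxd8. The largest distances from the mean of the others were -0.59 for Hoxd1, -0.49 for Hoxb8 and -0.42 for Hoxb9. The median over the 28 genes was -0.08, against -0.01 over all genes tested and 0.68 over the 14 mesenchyme markers. No Hoxa gene lay outside the range of the others. The part of stromal RNA in these values was not tested.

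**Figure D4:**
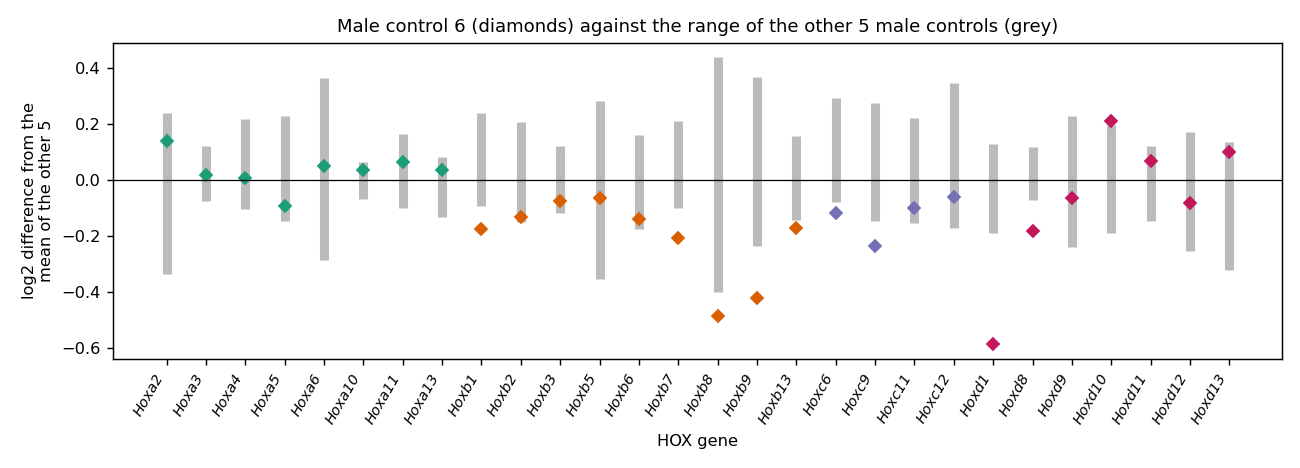
Log2 difference of male control 6 from the mean of the other 5 male controls (y axis, diamonds coloured by cluster) for each of the 28 tested HOX genes (x axis), with the range of those 5 arrays in grey. For 9 genes the diamond lies below the grey range and for Hoxd10 above it.

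Cofactors and regulators of HOX genes were not called with genotype, and some were called between the sexes. Of 8 tested TALE cofactors, 0 were called with genotype in males, in females or on average. Over all genes 0.199% were called in males, 0.0315% in females and 0.247% on average, so a count of 0 is near the background. Meis2, a MEIS class cofactor, was lower in males, at 10.15 in male knockouts, against 10.42 in female knockouts (log2 difference -0.27, SE 0.05, adjusted p = 0.00184). In controls it was 10.22 in males, against 10.45 in females (-0.23, SE 0.05, adjusted p = 0.01). The other 7 cofactors, among them Pbx2, Pbx3 and Meis1, were not called between the sexes. The 1 of 8 called is 12.5% in either genotype, against 7.19% of all genes in knockouts and 6.94% in controls.

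Of 19 tested regulators of HOX clusters and chromatin, 0 were called with genotype. This too is near the share of all genes (0.199% in males, 0.0315% in females and 0.247% on average). Between the sexes 1 of 19 (5.26%) was lower in knockout males and 3 (15.8%) in control males, against 3.52% and 3.67% of all genes called as lower in those comparisons. Kdm6a, an X-linked histone demethylase that escapes X inactivation and opposes Polycomb, had a male minus female log2 difference of -0.57 in knockouts (adjusted p = 1.83e-05) and -0.60 in controls (adjusted p = 9.56e-06). Kdm6b, its autosomal relative, differed by -0.13 in knockouts (adjusted p = 0.0757) and -0.23 in controls (adjusted p = 0.00102). Cbx2, a Polycomb subunit, differed by -0.12 in knockouts (adjusted p = 0.282) and -0.19 in controls (adjusted p = 0.0483). Cdx1, Cdx2 and Cdx4, which activate HOX genes in the early embryo and mark the gut, were above the array median on 1, 0 and 0 arrays. Of 9 tested RNAs and neighbours of the clusters, 0 were called in any of the 6 comparisons. Among them were Evx1, Skap2 and Hibadh beside Hoxa and Calcoco1 and Smug1 beside Hoxc. The shares of all genes called ran from 0.00525% for the difference of the effects to 7.19% between knockout sexes. A count of 0 of 9 is near these shares.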

How the data were processed

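The authors deposited log2 values for 72688 probe sets on 22 arrays, a scale read here from their range (1.59 to 14.23). Biotin-labelled RNA was hybridised to whole-transcript arrays, per the labels' protocols. How the signals were corrected, normalized and summarized is not given in the sources used here. Over 65770 transcript clusters, the arrays had medians of 5.10 to 5.27, so no further normalization was applied.

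Probe sets took their names from the platform table (30604 had 1 symbol, 2146 several), updated by gene identifier. The 19050 genes past the filter on dim signals were fitted in a model of 4 group means with limma 3.58.1 in R 4.3.3. Default eBayes gave 4.34 prior degrees of freedom beside 18 residual ones. Two-sided p-values were adjusted after Benjamini-Hochberg over all genes tested. Litter, batch and date are not labelled and could not be modelled. The precision is limited by the array number, with a median SE of 0.065 between male genotypes and 0.048 on the mean of the sexes. The script was tested on simulated data.

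The HOX genes, the gene lists and the rule for array values were chosen with earlier results of these data known. Under that rule, array values are shown for HOX genes called in any of 6 comparisons, and for the 4 of smallest p on the average genotype comparison and between control sexes. Alternatives covered normalization, filters, probe set averaging, eBayes options, fewer groups, a replicate block, array weights, marker covariates and single arrays left out. RefSeq GRCm38.p6 tables gave gene order and promoters.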

Additional observations from a re-analysis of the deposited data

Results flagged for a closer look

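In 7 of 112 sets of arrays (28 HOX genes in 4 groups), 1 array lay far from the rest of its group by Dixon's gap test, which marks about 1 set in 20 by chance. Male knockout 4 was the highest of its group for Hoxb8 at 6.77 (next array 5.99), and male knockout 5 for Hoxa13 at 8.22 (next 8.12). Female knockout 1 was the highest for Hoxb9 at 7.43 (next 7.06). Male control 4 was the highest of its group for 3 genes, with Hoxa4 at 6.69 (next 6.48), Hoxc6 at 6.18 (next 5.82) and Hoxc12 at 5.75 (next 5.41). Male control 2 was the lowest for Hoxd13 at 8.89 (next 9.26), and without it the average genotype difference of Hoxd13 was 0.16 (limma adjusted p = 0.56).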

How the results depend on the processing

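Results were recomputed under 10 alternatives, under 2 marker covariates chosen after seeing the data, and without single arrays of the groups compared. On the average genotype comparison 1 HOX gene was called in all of these except with the urothelium covariate, where the count was 0; the cause was not tested. The count was 0 throughout for the knockout effect in males, in females and for their difference. It was 2 throughout between knockout sexes, and between control sexes it was 2, or 3 with array weights and with only the control arrays, where Hoxb6 gained a call (0.36 and 0.30). Leaving out single arrays, the average Hoxd12 difference ran from 0.30 to 0.37, the Hoxd10 sex difference from -0.64 to -0.55 in knockouts and -0.68 to -0.56 in controls, and that of Hoxd11 from -0.45 to -0.37 in knockouts and -0.48 to -0.39 in controls. Same-numbered arrays share only a number: over 21 pairs their deviations from the group means correlated at -0.21 to 0.25, and 3 pairs exceeded 0.1. With the replicate number as a block (replicate block), 1 HOX gene was called on the average genotype comparison, with Hoxd12 at 0.34 (adjusted p = 0.0178), and 2 between the sexes in either genotype. Over all genes, calls moved to 20 in males and 3 in females with only the compared arrays, against 38 and 6, and to 72 on the average genotype comparison and 11 in females with array weights, against 47 and 6. Centring arrays on their median gave 3 in females. Leaving out single arrays gave 2 to 6 in females, with 2 without female knockout 4, female control 3 or female control 5 and 3 without female knockout 1, female knockout 3 or female control 1, so the share of all genes called there is itself unstable. The difference of the effects gave 0 to 2 calls, against 1. The number of arrays limits small differences, and low signal limits the Hoxc genes.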

Other observations

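The 5 Hoxc genes below the filter on dim probe sets were also tested without it, in a fit over 30102 genes. Their differences ran from -0.16 to 0.18 over the 6 comparisons, and the smallest adjusted p of limma was 0.233. Hoxc13, which is known from hair and nail, averaged 4.88 in male knockouts, 4.73 in male controls, 4.85 in female knockouts and 4.89 in female controls.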
